A study of Homo sapiens with 12 samples.

Results

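The genes described here encode subunits of the GABA-A receptor. They were GABRA3, GABRA5, GABRB1, GABRG3, GABRE and GABRQ, taken by gene symbol. They were chosen by their measured count differences between the groups, since earlier results of the same counts had shown large ones for some of them. Of the 6 members, 4 had rows among the 21569 genes of the count table and all 4 passed the filter on low counts, which left 17084 genes. GABRA3 passed only through the clone 1 libraries, and GABRG3 only through the clone 2 libraries and those labelled rescue. GABRB1 and GABRQ were not analysed here. Because of that choice, the members' values are given as a description with no test.

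The GABA-A receptor is a chloride channel of several subunits around a pore, opened by the transmitter GABA. An alpha and a beta subunit form the GABA binding site, and a gamma, delta, epsilon or theta subunit usually completes the channel and sets its place in the membrane and its drug response. In the brain the alpha 5 subunit is known for receptors outside synapses, in the hippocampus above all, while the alpha 3, epsilon and theta genes lie together on the X chromosome and the alpha 5 and gamma 3 genes on chromosome 15. All values below are levels of RNA, and a channel at the membrane needs several subunits together.

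Polyadenylated RNA was sequenced from TC71, a human Ewing sarcoma line grown in DMEM with fetal bovine serum, in 4 groups of 3 libraries. The groups were ID2 knockout clone 1, ID2 knockout clone 2, a rescue line of clone 2, and wild-type TC71. Each knockout group is 1 clone, so an effect of the knockout and a difference between clones cannot be told apart, and the labels do not describe the rescue construct. The ID2 protein pairs with E proteins, which bind DNA, but cannot bind DNA itself, and so holds them back. Whether the libraries within a group came from separate cultures is not stated in the labels, and the spread behind each p-value may therefore be technical. In RNA from whole cultures, fewer cells that express a gene and less RNA per cell cannot be told apart.

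Library totals ran from 19420408 to 29748084 counts. ID2 itself averaged 18.1 ± 0.777 CPM in clone 1, 50.9 ± 3.16 in clone 2, 41.5 ± 0.537 in the libraries labelled rescue and 77.9 ± 0.657 in wild-type libraries (CPM, counts scaled by library total with TMM factors, SD, n = 3 each, as for all means below). The libraries labelled rescue thus held less RNA counted under ID2 than clone 2, opposite to what their label implies. The log2 fold change was -0.29 (SE 0.047, edgeR quasi-likelihood test, adjusted p = 3.52e-06). Whether RNA of the rescue construct would be counted under ID2 is not known, so this value does not check the rescue. The counts are sums over the whole gene and the edited stretch is not given in the sources used here, so they do not check the edit. All 8 Ewing sarcoma markers reached 1 CPM in every group, and the summed glia and blood markers stayed under 1 CPM in every library.

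GABRA5 (ENSG00000186297), the alpha 5 subunit, was the member with the most reads and with the widest range. It lies on the plus strand at chr15:26866363-26949207 (hg38, GENCODE 29). The clone 1 libraries held 0, 2 and 0 reads of it, the clone 2 libraries 3772, 2519 and 2810, the libraries labelled rescue 3440, 3239 and 3379, and the wild-type libraries 74, 48 and 69. Clone 2 and the libraries labelled rescue overlapped each other and lay far above wild-type, and all 3 clone 1 libraries lay below every wild-type library.

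On the scaled level GABRA5 averaged 0.0237 ± 0.0411 CPM in clone 1, 129.7 ± 2.12 in clone 2, 127 ± 1.94 in the libraries labelled rescue and 2.59 ± 0.452 in wild-type. The ratio of clone 2 to wild-type was 50.3 (log2 fold change 5.65, SE 0.0698), and that of the libraries labelled rescue to wild-type was 49.2 (5.62, SE 0.0696). Clone 1 stood on the other side of wild-type, at a ratio of 0.0107 from 2 reads (exact 95% interval 0.00129 to 0.0392, counting error only). Against clone 2, the libraries labelled rescue differed by a log2 fold change of -0.03 (SE 0.0386), less than that error. Clone 2 over clone 1 came to 4708 (exact 95% interval 1303 to 38878). The 3 replicates of clone 2 ran from 127 to 132 CPM, so a 2-read group sets the width of that interval.

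**Figure D1:**
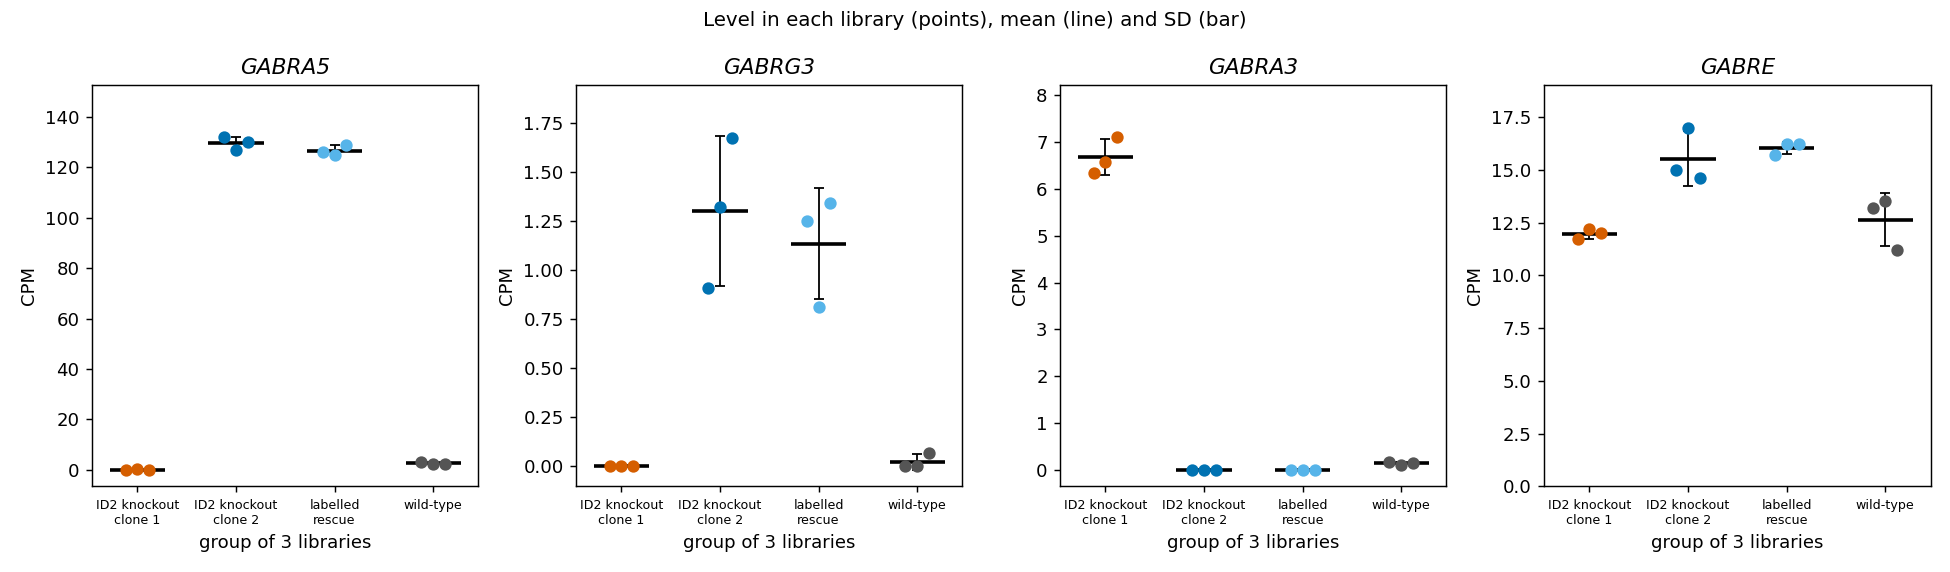
Level of each analysed subunit gene in CPM (vertical axes, linear, 1 scale per gene) in each of the 3 libraries of a group (points), with the group mean (line) and SD (bar). GABRA5 stands at a mean of 129.7 CPM in clone 2 and 127 in the libraries labelled rescue, GABRA3 is seen in clone 1 at 6.35 to 7.12 CPM, and GABRE lies between 11.2 and 17 CPM in all 12 libraries.

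GABRG3 (ENSG00000182256), the gamma 3 subunit, starts next to GABRA5 on the same strand, at chr15:26971282-27541991. It had 0 reads in each clone 1 library, 26, 26 and 36 in the clone 2 libraries, 34, 21 and 35 in those labelled rescue, and 0, 0 and 2 in wild-type libraries. Reads were found in the same groups as the bulk of the GABRA5 reads, and neither of these groups overlapped wild-type. The level was far lower, at 1.3 ± 0.38 CPM in clone 2, 1.13 ± 0.28 in the libraries labelled rescue and 0.023 ± 0.0398 in wild-type. Per kilobase of exon the GABRG3 level was 0.103 in clone 2 and 0.09 in the libraries labelled rescue, against GABRA5 levels of 31.2 and 30.6 in these groups. The GABRG3 ratio of clone 2 to wild-type was 46.5 (counting interval 12.5 to 389.8) and that of the libraries labelled rescue to wild-type 42 (11.3 to 352). Both rest on the 2 reads of 1 wild-type library. With no read in clone 1, whose floor of 3 reads over the group is 0.0414 CPM, GABRG3 was at least 30.3-fold higher in clone 2 than in clone 1.

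GABRA3 (ENSG00000011677), the alpha 3 subunit, had most of its reads in clone 1, where GABRA5 had 2 reads. It lies on the minus strand at chrX:152166234-152451358. The clone 1 libraries held 127, 185 and 173 reads, all clone 2 libraries and all libraries labelled rescue held 0, and the wild-type libraries held 4, 2 and 4. Every clone 1 library stood above, and every clone 2 and rescue-labelled library below, every wild-type library. The level was 6.68 ± 0.397 CPM in clone 1 and 0.133 ± 0.0367 in wild-type, a ratio of 49.5 (log2 fold change 5.58, SE 0.256). With the reads of each group summed, 10 in wild-type, and against a floor of 3 reads over the group, 0.0429 CPM for clone 2 and 0.0379 CPM for the libraries labelled rescue, GABRA3 was at least 3.16-fold lower in clone 2 than in wild-type, at least 3.57-fold lower in the libraries labelled rescue than in wild-type, and at least 156-fold lower in clone 2 than in clone 1.

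Alpha subunit genes resemble each other, so reads could in principle be given to the wrong one. In the groups with at least 2519 GABRA5 reads a library, GABRA3 had 0 reads, which measures directly that no GABRA5 read was counted as GABRA3 there.

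GABRE (ENSG00000102287), the epsilon subunit, was the only analysed member with at least 235 reads in every library. It lies on the minus strand at chrX:151953124-151974680. It had 235, 342 and 292 reads in clone 1, 430, 335 and 316 in clone 2, 429, 418 and 423 in the libraries labelled rescue, and 314, 285 and 324 in wild-type. In CPM the libraries ran from 11.7 to 12.2 in clone 1, 14.6 to 17 in clone 2, 15.7 to 16.2 in those labelled rescue and 11.2 to 13.5 in wild-type. Clone 1 and wild-type overlapped, as did clone 2 and the libraries labelled rescue, and neither of the higher groups overlapped either of the lower ones.

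The GABRE differences were small beside those of the other 3 analysed members. The log2 fold change was -0.06 (SE 0.0799) for clone 1 against wild-type, 0.30 (SE 0.0769) for clone 2 against wild-type and 0.36 (SE 0.0749) for the libraries labelled rescue against wild-type. It was 0.05 (SE 0.0729) for the libraries labelled rescue against clone 2 and 0.37 (SE 0.0778) for clone 2 against clone 1. Ordered by their means the groups ran from the libraries labelled rescue at 16 ± 0.251 CPM and clone 2 at 15.5 ± 1.25 to wild-type at 12.6 ± 1.26 and clone 1 at 12 ± 0.21.

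Over the 4 analysed members, the libraries of clone 1 lay wholly above wild-type for 1 member and wholly below for 1, and the share of all tested genes whose groups do not overlap was 65.2% in that comparison. For clone 2 against wild-type 3 members lay above and 1 below, beside 64.4% of all tested genes. For the libraries labelled rescue 3 lay above wild-type and 1 below (61.9% of all tested genes), and against clone 2 all 4 overlapped (47.6%). Clone 2 lay above clone 1 for 3 members and below for 1 (65.6%). The members were picked for such differences, so these counts carry nothing beyond the values. The comparisons with wild-type share its 3 libraries.

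Set per kilobase of exon and summed over the 4 analysed members, the make-up of the subunit RNA differed by group. In clone 1 GABRA3 made up 56 ± 1.4% and GABRE 43.8 ± 1.23%, with GABRA5 at 0.2 ± 0.347%. In clone 2 GABRA5 made up 94.8 ± 0.454%, GABRE 4.91 ± 0.444% and GABRG3 0.313 ± 0.0928%. The libraries labelled rescue had the same order, with GABRA5 at 94.6 ± 0.0338% and GABRE at 5.16 ± 0.0956%. In wild-type GABRE made up 66.7 ± 3.95%, GABRA5 31.6 ± 3.52%, GABRA3 1.62 ± 0.41% and GABRG3 0.103 ± 0.178%. The leading subunit by this measure was therefore GABRA3 in clone 1, GABRA5 in clone 2 and the libraries labelled rescue, and GABRE in wild-type. The order within clone 1 depends on the length used. On the union of exons the level was 1.59 CPM per kilobase for GABRA3 and 1.25 for GABRE, but on the longest annotated transcript it was 1.8 for GABRA3 and 1.94 for GABRE. No such turn occurred in wild-type, where GABRE stood at 1.31 and GABRA5 at 0.622 on the union of exons and at 2.04 and 0.795 on the longest transcript.

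**Figure D2:**
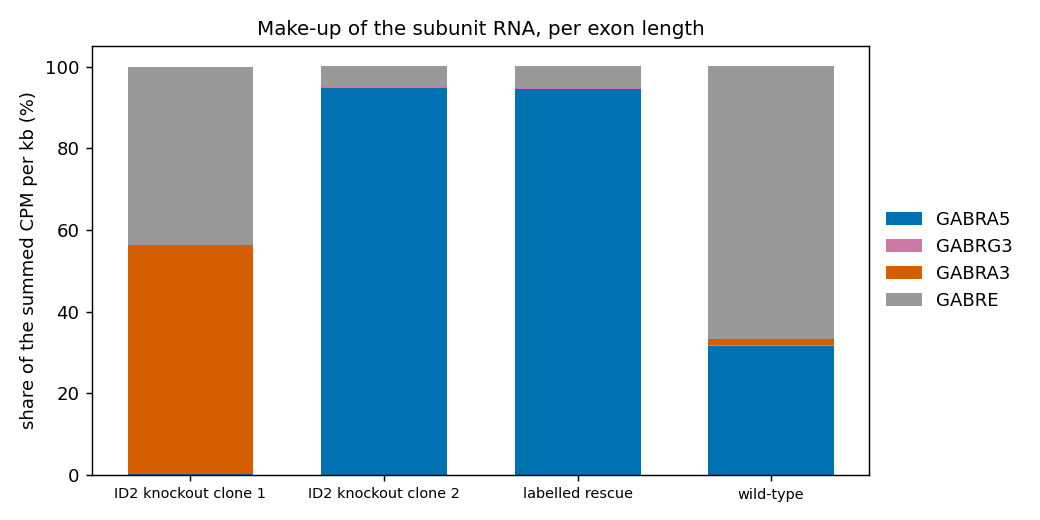
Mean share of each subunit gene in the summed CPM per kilobase of exon of the 4 analysed members (vertical axis, percent, stacked bars) in each group of 3 libraries. GABRA3 takes 56% in clone 1, GABRA5 takes 94.8% in clone 2 and 94.6% in the libraries labelled rescue, and GABRE takes 66.7% in wild-type.

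Promoter sequence was looked up in RefSeq for the members, and 4 of the 6 had an entry (GABRB1, GABRG3, GABRE and GABRQ). The GABRG3 and GABRE windows are shown as those of a member that varied widely and of one that varied little. E proteins, the partners of ID2, bind the letters CANNTG, and the Ewing sarcoma fusion protein binds GGAA repeats. Each window holds 300 bases around the RefSeq start in GRCh38.p14, with CANNTG in capitals, at chr15:26970931-26971230 (plus strand) and chrX:151974627-151974926 (minus strand):
GABRG3: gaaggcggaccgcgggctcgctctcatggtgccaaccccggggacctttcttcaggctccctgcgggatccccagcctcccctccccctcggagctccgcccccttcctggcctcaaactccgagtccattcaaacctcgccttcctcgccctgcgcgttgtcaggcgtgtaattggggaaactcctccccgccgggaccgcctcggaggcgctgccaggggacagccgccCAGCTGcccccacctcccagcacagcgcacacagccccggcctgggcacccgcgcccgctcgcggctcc
GABRE: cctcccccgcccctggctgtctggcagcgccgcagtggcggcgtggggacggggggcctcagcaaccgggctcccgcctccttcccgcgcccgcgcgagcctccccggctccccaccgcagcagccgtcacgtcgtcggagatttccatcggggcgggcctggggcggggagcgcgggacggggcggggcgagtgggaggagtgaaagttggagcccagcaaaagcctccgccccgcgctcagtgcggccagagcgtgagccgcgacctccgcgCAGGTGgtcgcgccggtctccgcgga
Both windows held 1 CANNTG match, CAGCTG in GABRG3 and CAGGTG in GABRE, and 68.7% of 35116 promoters of this length hold one. CANNTG reads as itself on the other strand, so 1 search covers both. The letters GGAAGGAA were searched on both strands and were in neither window, against 3.67% of all promoters. CG pairs numbered 27 in GABRG3 and 41 in GABRE, with a median of 14 over all promoters, and 71.8% of promoters held fewer CG pairs than GABRG3 and 93.3% fewer than GABRE.

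The genes around the members were set beside them because the analysed members lie in clusters. Within 1 Mb of a member's gene body 46 other genes were in the table and 38 were tested. In clone 1 against wild-type 17 rose and 9 fell, or 68.4%, against 61.5% of all tested genes. In clone 2 against wild-type 12 rose and 9 fell (55.3%, all genes 62.1%), and in the libraries labelled rescue against wild-type 6 rose and 13 fell (50%, all genes 58.4%). Against clone 2 the libraries labelled rescue had 3 that rose and 12 that fell (39.5%, all genes 39.2%). Clone 2 against clone 1 had 10 higher and 15 lower (65.8%, all genes 62.2%). The median log2 fold change of the neighbours in clone 1 against wild-type was 0.31, against 0.01 over all tested genes. Shares called were thus near the background in all 5 comparisons.

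On the X chromosome several neighbours had the same order of groups as GABRA3. Of 24 tested neighbours there, 13 rose and 7 fell in clone 1 against wild-type (83.3%, all genes 61.5%, all 631 tested genes of the chromosome 55.9%). Of the 24, 8 passed the filter on low counts only with the clone 1 libraries, and these are among the 13, so the share and direction are partly set by the filter. These 8 include MAGEA4, MAGEA12, CSAG1, FATE1 and PNMA5, and no p is given for them in clone 1 against wild-type. The nearest tested neighbours were MAGEA4, 28 kb from GABRE, and MAGEA3, 41.2 kb from GABRQ, a member beyond GABRA3 that was not analysed. Both belong to the MAGE-A family, genes that are normally active in the testis and are known as cancer-testis antigens. MAGEA4 had 21, 43 and 50 reads in clone 1, 9, 8 and 4 in clone 2, 0, 1 and 3 in the libraries labelled rescue, and 0, 1 and 0 in wild-type. Unlike GABRA3 it stood above wild-type in clone 2 too, with a ratio of 22.2 (95% interval 3.57 to 917, adjusted p = 0.00026) that rests on 1 wild-type read. MAGEA3 averaged 84.8 ± 0.256 CPM in clone 1, 0.204 ± 0.0426 in clone 2, 0.165 ± 0.0475 in the libraries labelled rescue and 1.68 ± 0.344 in wild-type. Like GABRA3 it stood above wild-type in clone 1 (log2 fold change 5.63, SE 0.0811, adjusted p = 4.33e-39) and below it in clone 2 (-3.06, SE 0.293, adjusted p = 6.43e-12).

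MAGEA12, another MAGE-A gene, held 47 ± 1.35 CPM in clone 1 and 0.502 ± 0.198 in wild-type (log2 fold change 6.50, SE 0.126). CSAG1, which neighbours the MAGE-A genes and is itself known as a cancer-testis antigen, held 15.9 ± 0.271 CPM in clone 1 and 0.234 ± 0.0965 in wild-type (a ratio of 65.3). MAGEA6 held 45.5 ± 1.51 CPM in clone 1 and 0.891 ± 0.0352 in wild-type (5.66, SE 0.108, adjusted p = 6.73e-35). These 3 genes had group means at or under 0.151 CPM in clone 2 and in the libraries labelled rescue, the same groups in which GABRA3 had no read. MAGEA6 in clone 2 against wild-type changed by -3.85 (SE 0.47, adjusted p = 2.85e-09), and by -5.14 without clone 2 replicate 3. Some MAGE-A genes, such as MAGEA3 and MAGEA6, are close copies of each other, so the split of reads between them is uncertain.

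FATE1, known from fetal and adult testis, averaged 7.73 ± 0.665 CPM in clone 1, 0.315 ± 0.0382 in clone 2 and 0.248 ± 0.0844 in wild-type, a log2 fold change of 4.88 (SE 0.218) in clone 1 against wild-type. PNMA5, a paraneoplastic antigen gene 331 kb from a member, had 369, 545 and 447 reads in clone 1 and 0, 0 and 1 in wild-type. MAGEA1 averaged 5.53 ± 0.941 CPM in clone 1, 0.492 ± 0.174 in clone 2 and 2.08 ± 0.649 in wild-type, higher in clone 1 (1.40, SE 0.17, adjusted p = 2.30e-09) and lower in clone 2 (-2.07, SE 0.281, adjusted p = 3.20e-08).

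Not all X neighbours moved this way. HMGB3, a chromatin protein gene, averaged 83.9 ± 4.42 CPM in clone 1, 63.7 ± 1.51 in clone 2, 94.2 ± 3.54 in the libraries labelled rescue and 141 ± 3.38 in wild-type, and fell in all 3 (clone 2 against wild-type -1.15, SE 0.0405, adjusted p = 3.06e-25). DUSP9, a phosphatase of the ERK pathway, rose in clone 1 (1.41, SE 0.186, adjusted p = 1.69e-08) and in clone 2 (1.34, SE 0.189, adjusted p = 6.68e-08) against wild-type. TREX2, an exonuclease gene, rose in clone 2 against wild-type (1.04, SE 0.237, adjusted p = 0.000225). GABRE itself lies between MAGEA4 and GABRA3 and varied little, as given above.

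On chromosome 15 the neighbours described are OCA2 and HERC2. OCA2, a melanosome transport gene 213 kb from GABRG3, averaged 1.26 ± 0.299 CPM in clone 1, 0.265 ± 0.057 in clone 2, 0.0894 ± 0.0602 in the libraries labelled rescue and 0.363 ± 0.09 in wild-type. It passed the filter only with the clone 1 libraries, so its log2 fold change in clone 1 against wild-type (1.75, SE 0.318) is given with no p. It had a log2 fold change of -0.42 (SE 0.442, adjusted p = 0.419) in clone 2. HERC2, a ubiquitin ligase gene, averaged 178 ± 12 CPM in clone 1, 182 ± 14 in clone 2, 187 ± 15.3 in the libraries labelled rescue and 163 ± 5.37 in wild-type, and in clone 2 against wild-type it rose by 0.16 on the log2 scale (SE 0.0477, adjusted p = 0.00461), where GABRA5 differed by 5.65. The 560 tested genes of chromosome 15 had a median log2 fold change of -0.07 in clone 2 against wild-type.

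Around GABRB1 on chromosome 4, 10 neighbours were tested, and 3 were called in clone 2 against wild-type (30%, all genes 62.1%). NIPAL1, a magnesium transporter gene, rose in clone 1 (1.27, SE 0.171, adjusted p = 2.39e-08). TXK, a kinase of the Tec family, rose in clone 1 (1.15, SE 0.304, adjusted p = 0.0012) and in clone 2 (1.74, SE 0.281, adjusted p = 1.01e-06) against wild-type. The nearest tested gene, COMMD8 at 24.4 kb, averaged 17 ± 1.32 CPM in clone 1 and 20.5 ± 0.51 in wild-type, and the pseudogene RAC1P2 averaged 2.12 ± 0.137 in clone 1 and 2.07 ± 0.44 in wild-type.

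**Figure D3:**
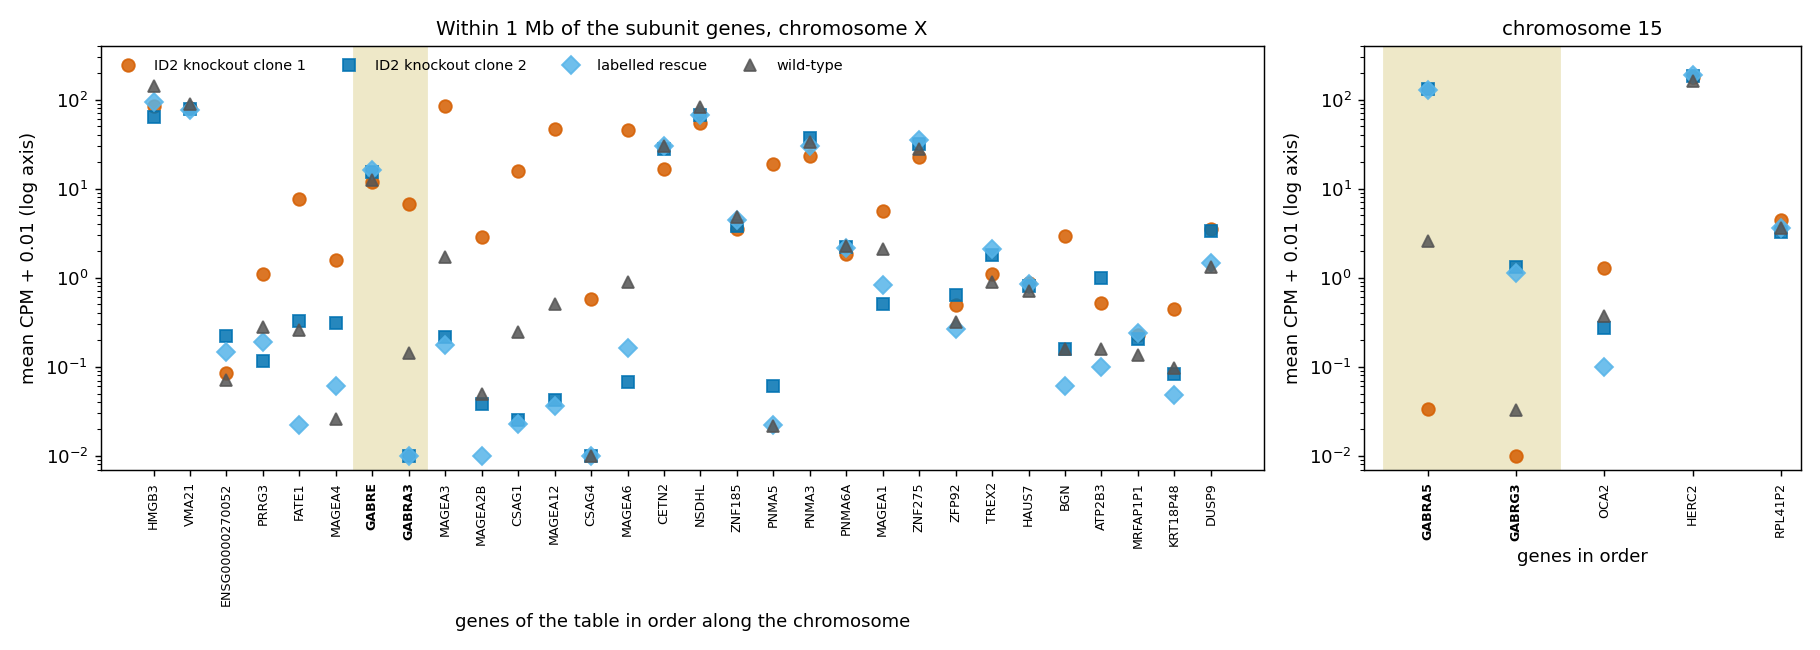
Mean CPM plus 0.01 (vertical axes, log scale) in each group of 3 libraries for genes of the table within 1 Mb of the analysed members, in order along chromosome X and chromosome 15 (horizontal axes, not to distance), with the members in bold and shaded. On the X chromosome MAGEA3 at 84.8 CPM, MAGEA12 at 47 and CSAG1 at 15.9 in clone 1 stand above the other groups as GABRA3 does at 6.68, and on chromosome 15 GABRA5 stands at 129.7 CPM in clone 2 while HERC2 lies between 163 and 187 in all groups.

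The genes with the profile nearest to each member were ranked by the root mean square distance between centred log2 CPM values over the 12 libraries, among 11965 genes, for the 3 members with a mean of at least 1 CPM. All points of a profile share libraries within a group, so this is a description only. Nearest to GABRA5 were GPR27, an orphan receptor gene, at 1.45, NCAM1, the neural cell adhesion molecule, at 1.97, and TMTC1, a mannosyltransferase gene, at 1.98, where the median gene lay at 4.33. GPR27 averaged 0 CPM in clone 1, 8.76 ± 0.63 in clone 2, 10.1 ± 0.896 in the libraries labelled rescue and 0.528 ± 0.0152 in wild-type. As with GABRA5, clone 1 was lowest and wild-type next, but the highest GPR27 mean was in the libraries labelled rescue rather than in clone 2. GABRG3, next to GABRA5 on the chromosome, lay farther away by this measure, at 2.63. It had at most 36 reads in a library, and a prior count of 2 was used for the log2 values, which narrows the range of such a gene. How far this sets the distance was not tested.

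Nearest to GABRA3 were its X neighbour CSAG1 at 0.51, CAPN5, a calpain protease gene on chromosome 11, at 0.60, and LAD1, an anchoring filament gene of epithelia on chromosome 1, at 0.63, with a median of 2.63. CAPN5 averaged 137 ± 2.58 CPM in clone 1, 3.18 ± 0.29 in clone 2, 4.2 ± 0.472 in the libraries labelled rescue and 4.56 ± 0.523 in wild-type. Nearest to GABRE were GPATCH1 at 0.06, TRMT61B at 0.06 and MARVELD1 at 0.07, with a median of 0.29, and a gene that varies this little has many others near it.

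Markers of other cell types moved between the groups beside these genes. Epithelial markers, 3 of 4 in the table, summed to 865 to 932 CPM in clone 1, 146 to 178 in clone 2, 75.9 to 85.9 in the libraries labelled rescue and 114 to 121 in wild-type, so they were highest where GABRA3 was. KRT8 gave 504 CPM of this in clone 1 and 7.59 in wild-type. Neuronal markers, 6 of 10 in the table, summed to 498 to 517 CPM in clone 1, 429.9 to 476 in clone 2, 343 to 356 in the libraries labelled rescue and 268 to 284 in wild-type. Their sum was thus highest in clone 1, where GABRA5 was lowest. Most of the sum was SYT1, at 401 CPM in clone 1, 353 in clone 2, 283 in the libraries labelled rescue and 216 in wild-type. SYN1 and SLC17A7 were also highest in clone 1. The others went another way. MAP2 was highest in wild-type, at 2.02 CPM against 1.78 in clone 1. SYP, at 6.61 CPM in clone 2 against 5.35 in clone 1, and RBFOX3, at 0.275 against 0.108, were highest in clone 2. RBFOX3, which defines mature neurons, was at or under 0.275 CPM as a mean in every group. Fibroblast markers, all 4 in the table, summed to 126 to 131 CPM in clone 1, 65.8 to 80 in clone 2, 15.6 to 17.6 in the libraries labelled rescue and 50.5 to 52.4 in wild-type. Most of the clone 1 sum was COL1A1, at 109.6 CPM in clone 1 and 27.4 in wild-type, and DCN stood at 15.4 and 11.4. LUM and PDGFRA went the other way, at 2.46 and 0.0874 CPM in clone 1 and 3.77 and 8.84 in wild-type. The part of these markers in the subunit levels was not tested.

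The other genes of GABA signalling were read as a list of 56, of which 40 were in the table and 32 were tested. Against wild-type, 11 rose and 9 fell in clone 1 (62.5%, all genes 61.5%), 12 rose and 9 fell in clone 2 (65.6%, all genes 62.1%; 17 and 9 with upper quartile scaling), and 14 rose and 10 fell in the libraries labelled rescue (75%, all genes 58.4%). In the libraries labelled rescue against clone 2, 6 rose and 6 fell (37.5%, all genes 39.2%), which became 5 and 8 with upper quartile scaling. In clone 2 against clone 1, 9 were higher and 14 lower (71.9%, all genes 62.2%). Upper quartile scaling moved all genes in clone 2 against wild-type as well, to 6413 that rose and 4257 that fell, against 5380 and 5230 with TMM scaling. The list's median log2 fold change lay between 0.00 and 0.07 in these 5 comparisons, and that of all tested genes between 0.00 and 0.01. Its members are given by role.

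Among the 13 other GABA-A subunit genes, 7 were in the table and 2 were tested. Of these GABRR2 is described. GABRR2, the rho 2 subunit of the retina, averaged 1.33 ± 0.0723 CPM in clone 1, 1.76 ± 0.104 in clone 2, 1.03 ± 0.413 in the libraries labelled rescue and 1.02 ± 0.226 in wild-type. It rose in clone 2 against wild-type (0.81, SE 0.239, adjusted p = 0.00353) and was lower in the libraries labelled rescue than in clone 2 (-0.76, SE 0.234, adjusted p = 0.00816), a call that was lost without rescue replicate 3 (adjusted p = 0.0988). GABRA2, GABRB2, GABRG1 and GABRR1 had at most 9 reads in any library. GABRB2 encodes a beta subunit, a class that most GABA-A receptors need, and it had between 0 and 9 reads a library.

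Of the genes for assembly, trafficking and anchoring, 19 were tested, with 7 that rose and 4 that fell in clone 1, 6 and 5 in clone 2, and 9 and 5 in the libraries labelled rescue, each against wild-type. These were 57.9%, 57.9% and 73.7% of the 19, beside 61.5%, 62.1% and 58.4% of all genes. SHISA7, an auxiliary protein of the receptor, averaged 1.44 ± 0.318 CPM in clone 1, 1.9 ± 0.327 in clone 2, 0.139 ± 0.0197 in the libraries labelled rescue and 0.538 ± 0.058 in wild-type. It rose in clone 1 (1.42, SE 0.269, adjusted p = 1.51e-05) and in clone 2 (1.78, SE 0.258, adjusted p = 1.28e-07) against wild-type. In the libraries labelled rescue it was lower than in clone 2 (-3.70, SE 0.339, adjusted p = 7.94e-12) and lower than in wild-type (-1.92, SE 0.443, adjusted p = 0.000267). SHISA7 thus separated the libraries labelled rescue from clone 2, which GABRA5 did not.

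HAP1, the huntingtin-associated protein that takes part in the recycling of receptors, averaged 258 ± 9.03 CPM in clone 1, 128 ± 7.11 in clone 2, 51.1 ± 1.57 in the libraries labelled rescue and 124 ± 1.02 in wild-type. It rose in clone 1 against wild-type (1.06, SE 0.0366, adjusted p = 5.29e-26) and was lower in the libraries labelled rescue than in clone 2 (-1.32, SE 0.0413, adjusted p = 1.59e-26). RDX, the radixin that holds alpha 5 receptors outside synapses, averaged 393 ± 4.1 CPM in clone 1, 221 ± 1.84 in clone 2, 242 ± 9.1 in the libraries labelled rescue and 391 ± 8 in wild-type. RDX fell in clone 2 against wild-type (-0.82, SE 0.0318, adjusted p = 6.04e-24), where GABRA5 was high, and had a log2 fold change of 0.01 in clone 1 (adjusted p = 0.854).

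NLGN2, the adhesion protein of inhibitory synapses, averaged 39.9 ± 0.776 CPM in clone 1, 36.5 ± 2.1 in clone 2, 33.8 ± 1.35 in the libraries labelled rescue and 24.3 ± 0.776 in wild-type, and rose in all 3 against wild-type (0.72, 0.58 and 0.48 in that order). GABARAPL1, which binds gamma subunits, rose in clone 2 against wild-type (0.44, SE 0.044, adjusted p = 1.93e-11). TRAK1, a kinesin adaptor, fell in clone 2 (-0.61, SE 0.0415, adjusted p = 2.80e-16). The kinesin gene KIF5A and UBQLN1, a ubiquilin that stabilises subunits, moved in opposite directions in clone 1 and clone 2 against wild-type. KIF5A averaged 18.5 ± 0.484 CPM in clone 1, 12 ± 0.976 in clone 2 and 16 ± 0.746 in wild-type, and UBQLN1 averaged 176 ± 5.23 in clone 1, 256 ± 4.52 in clone 2 and 220.2 ± 1.06 in wild-type. The KIF5A rise in clone 1 (0.21, SE 0.0698, adjusted p = 0.00761) was no longer called without wild-type replicate 3 (adjusted p = 0.0745).

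**Figure D4:**
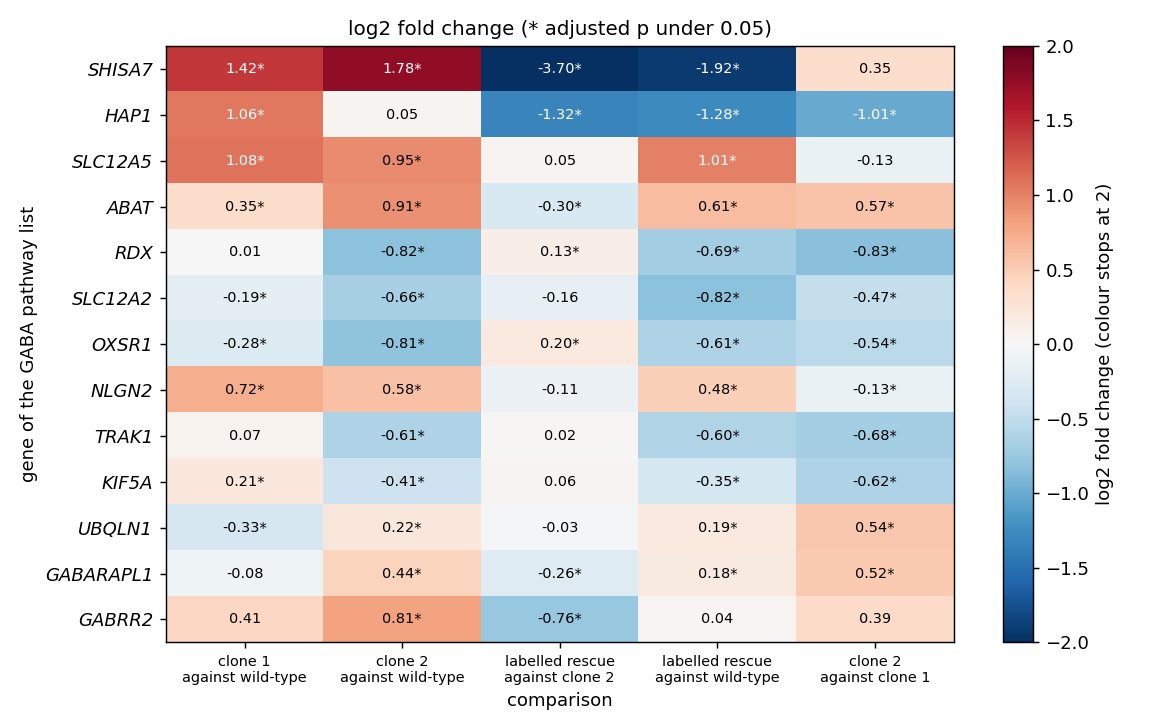
Log2 fold change (colour and number, colour scale ending at 2 in either direction) of the 13 named genes of the GABA signalling list (vertical axis) in the 5 comparisons (horizontal axis), with a star at an adjusted p under 0.05 over all tested genes. SLC12A5 and NLGN2 are higher than wild-type in both clones and in the libraries labelled rescue, and SHISA7 reaches -3.70 in the libraries labelled rescue against clone 2.

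The 8 genes of the chloride gradient were all tested, and 3 rose and 3 fell in each of the comparisons with wild-type (75%, all genes 61.5% in clone 1, 62.1% in clone 2 and 58.4% in the libraries labelled rescue). The direction of the GABA current depends on this gradient. SLC12A5, the KCC2 transporter that moves chloride out of cells, averaged 8.43 ± 0.174 CPM in clone 1, 7.66 ± 0.774 in clone 2, 7.98 ± 0.56 in the libraries labelled rescue and 3.94 ± 0.351 in wild-type. It rose in clone 1 (1.08, SE 0.109, adjusted p = 2.30e-11), in clone 2 (0.95, SE 0.112, adjusted p = 9.93e-10) and in the libraries labelled rescue (1.01, SE 0.108, adjusted p = 1.50e-10) against wild-type. SLC12A2, the NKCC1 transporter that moves chloride in, averaged 16.1 ± 1.1 CPM in clone 1, 11.7 ± 0.911 in clone 2, 10.5 ± 0.239 in the libraries labelled rescue and 18.5 ± 1.02 in wild-type. It fell in clone 2 (-0.66, SE 0.0744, adjusted p = 3.92e-10) and in the libraries labelled rescue (-0.82, SE 0.074, adjusted p = 1.41e-12). SLC12A7, the KCC4 transporter that also moves chloride out, averaged 0.263 ± 0.144 CPM in clone 1, 0.0323 ± 0.0281 in clone 2, 0.025 ± 0.0216 in the libraries labelled rescue and 1.1 ± 0.221 in wild-type. It is among the 3 that fell in each comparison with wild-type, the other way from SLC12A5. It passed the filter only with the wild-type libraries, so no p is given. OXSR1, a kinase that acts on both SLC12A5 and SLC12A2, fell in clone 2 against wild-type (-0.81, SE 0.0373, adjusted p = 1.15e-21). STK39, another kinase gene of this list, rose in clone 2 (0.18, SE 0.0459, adjusted p = 0.000636) and in clone 1 (0.42, SE 0.0449, adjusted p = 1.47e-10) against wild-type.

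Of the genes that make, carry and break down GABA, 4 of 9 were in the table and 2 were tested. ABAT, the transaminase that breaks GABA down, averaged 5.21 ± 0.325 CPM in clone 1, 7.75 ± 0.74 in clone 2, 6.28 ± 0.784 in the libraries labelled rescue and 4.09 ± 0.549 in wild-type, and rose in clone 2 against wild-type (0.91, SE 0.12, adjusted p = 1.39e-08). ALDH5A1, which acts in the next step of GABA breakdown, averaged 35.8 ± 0.984 CPM in clone 1, 31.7 ± 1.67 in clone 2, 32.4 ± 1.4 in the libraries labelled rescue and 43.3 ± 1.42 in wild-type. GAD1 and GAD2, the enzymes that make GABA, were at or under 0.25 CPM in every library and were not tested. GABBR1, the tested subunit of the separate GABA-B receptor, averaged 31.4 ± 1.58 CPM in clone 1, 37.1 ± 3.57 in clone 2, 31.6 ± 2.1 in the libraries labelled rescue and 38.5 ± 0.802 in wild-type.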

How the data were processed

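Polyadenylated RNA of 12 libraries, 4 groups of 3 by the labels' titles, was prepared with a stranded kit, per the labels' protocols. The authors deposited raw counts of reads per gene under Ensembl identifiers. Per the submitters' processing notes, FastQC and STAR were used with hg38. No version, counter, strand setting or annotation is named in the sources used here. Symbols matched 20717 of 21569 identifiers, and GENCODE 29 gave positions for 20825. The table held no gene with fewer than 21 reads in all.

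The quasi-likelihood test of edgeR 4.0.16 (R 4.3.3) was run on these counts with TMM scaling, filterByExpr (minimum count 10) and all 12 libraries in 1 fit. Calls were made where the adjusted p (Benjamini-Hochberg, 17084 genes) was under 0.05. The common biological coefficient of variation was 2.95%. The procedure was tested on simulated data in which few genes changed, and only in clone 1. Most genes were called here in the comparisons with wild-type, so that test does not check the scaling or calls in these data. Levels per kilobase used the union of exons. For groups with no read, 3 counts over the group served as the floor, and ratios with 1 to 3 reads have exact 95% intervals, both of which cover counting error only. Within groups, libraries differed beyond sampling noise (chi-square per degree of freedom 1.58 to 3.4). Each was taken as 1 sample, though this spread does not show that the libraries came from separate cultures.

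The members and all lists were chosen with earlier results of these data known. Named were the members, ID2, other GABA-A subunit genes, up to 12 list genes and up to 12 neighbours by size of change with a mean of 1 CPM or more, the nearest tested neighbours, and the 3 genes nearest in profile to each member. GABBR1, HERC2, GAD1, GAD2, ALDH5A1, SLC12A7 and STK39 are outside this rule and were named after their values were seen. Results of 2 genes that the rule names are not reported here. Alternatives were other scalings (DESeq2 size factors, upper quartile), filters, DESeq2 1.42.0, fits of only the groups compared, a replicate block, other windows and lengths, and leaving out each library.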

Additional observations from a re-analysis of the deposited data

Results flagged for a closer look

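The results below stand out because clone 1 and clone 2 lay on opposite sides of wild-type. For GABRA5 the ratio of clone 2 to clone 1 was 4708, with every clone 1 library below and every clone 2 library above the wild-type libraries, and this difference was not tested because the gene was chosen for it. GABRA3 was at least 156-fold lower in clone 2 than in clone 1, with clone 1 above and clone 2 below wild-type, and this was not tested for the same reason.

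For the other genes the values of clone 2 against clone 1 follow, with adjusted p from the edgeR quasi-likelihood test. These genes are listed because their clones lay on opposite sides of wild-type. The p-values are therefore a description and no separate support for that difference. KIF5A had a ratio of 0.65 (adjusted p = 1.50e-09) and UBQLN1 of 1.46 (adjusted p = 2.26e-18). Among the X chromosome neighbours, the ratio of clone 2 to clone 1 was 0.00236 for MAGEA3 (adjusted p = 4.95e-40), 0.00126 for MAGEA6 (adjusted p = 6.59e-36) and 0.089 for MAGEA1 (adjusted p = 1.50e-16). MAGEA12, with 2 reads in clone 2, had a ratio of 0.000607 (counting interval 7.35e-05 to 0.00219), and CSAG1, with 1 read, of 0.000898 (2.27e-05 to 0.00501). Among the genes nearest in profile, CAPN5 had a ratio of 0.0235, NCAM1 had a ratio of 174, and GPR27 was at least 212-fold higher in clone 2 than in clone 1.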

How the results depend on the processing

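Of 140 called values of named genes, none changed direction under the alternative scalings, filters and fits, those leaving out a library included. Under at least 1 of these 13 values lost the call, for ABAT, CAPN5, GABRR2, KIF5A, NIPAL1, NLGN2, OCA2, SLC12A2, TREX2 and TXK. Other windows and lengths do not bear on these values. Over 12 fits that each left out 1 library, called list genes ran from 18 to 21 for clone 1 against wild-type, 20 to 21 for clone 2, 23 to 24 for the libraries labelled rescue, 10 to 12 for these against clone 2 and 21 to 23 for clone 2 against clone 1. Called neighbours ran from 25 to 29, 19 to 22, 17 to 19, 12 to 15 and 25 to 27 in the same order. A window of 0.5 Mb gave 17, 10, 11, 7 and 16 called neighbours and one of 2 Mb gave 61, 52, 54, 34 and 64, by construction, with 23 and 101 genes tested. GABRA5 in the libraries labelled rescue against clone 2 changed by -0.06 with upper quartile scaling, 0.00 without a filter, and -0.03 to -0.01 with a library left out. Whether the same replicate numbers pair the libraries is not settled, since weak correlations cannot exclude it. Deviations from the group means correlated at -0.082 to 0.116 over 18 same-numbered pairs and at -0.137 to 0.073 over 36 others. In no pair of groups were all 3 same-numbered values over 0.1. Between clone 1 and clone 2 these were 0.042, 0.09 and 0.083, with the others from -0.078 to -0.006. Every other pair of groups had same-numbered values of both signs. With the replicate number as a block, called list genes were 20, 21, 24, 12 and 23, called neighbours 27, 21, 19, 14 and 25, and the GABRA5 log2 fold changes stayed at 5.65 for clone 2 and 5.62 for the libraries labelled rescue against wild-type, and at -0.03 between these groups. Depth limits GABRG3 and GABRA3, where 2 reads, or none, set a group's level.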
